A study of Mus musculus with 46 samples.

Results

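The baseline transcriptome of the mouse hippocampus at postnatal day 17 was described from the 15 control libraries among the 46 libraries of a study of early life adversity. Each library was made from messenger RNA of the left hippocampus of 1 Balb/cByj pup. The control (CTL) pups were reared from birth with ample bedding and a nestlet, and no library from the limited bedding or unpredictable stress litters was used. By the labels, 9 CTL pups were female and 6 were male. The study's methods give a different split of the CTL pups by sex, and every comparison of the sexes here rests on the labels. The pups are named here by labelled sex and sample number (no male pup 2 was analysed here). Litters are not tied to the labels, so some pups may be littermates, and p-values are then too small if littermates resemble each other.

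The hippocampus is a folded sheet of cortex that lays down memories of places and events. Signals enter from the entorhinal cortex at the dentate gyrus, pass along the mossy fibres of granule neurons to CA3, continue to CA1 and leave through the subiculum. Glutamatergic pyramidal and granule neurons are the bulk of its neurons, and GABAergic interneurons of many kinds set their timing. In the third postnatal week of the mouse, granule neurons are still being added, synapses are forming and being pruned, and oligodendrocytes are wrapping the first axons in myelin. RNA of a whole hippocampus pools all these cells, so fewer cells of a type and less RNA per cell cannot be told apart.

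Levels are given as TPM, in which the reads on a gene are divided by its transcript length and scaled to the same total in every library, so TPM can be compared between genes. Values after ± are standard deviations (SD) over the 15 pups unless another group is named. Between 15254 and 15909 genes reached 1 TPM in a library, and 21457 of 52635 genes were at 0 in all 15. The depth of each library cannot be read from TPM. Female pup 9 stood apart from the other females. Its column header notes that it was previously CTL.2, a name without the F that marks the female columns. The other CTL names without the F belong to males, and female pup 2 is a separate library. Its Xist level of 113 TPM and its Ddx3y level of 0 match the label, but on the first principal component, which held 27.7% of the variance, it lay at -5.32, while the other 8 females lay between 8.07 and 13.9 and the males between -18.8 and -11.9. Results that rest on the comparison of the sexes are therefore given with and without it.

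The highest mean levels were those of mitochondrial genes and of the predicted nuclear genes Gm42418 and Gm23935. All mitochondrial genes together held 11.8 ± 1.12% of TPM, from 9.89% in female pup 9 to 14.2% in female pup 6. The gene of the highest mean was mt-Co1, the catalytic subunit of cytochrome c oxidase, at 29544 ± 2251 TPM. It was followed among the protein genes by mt-Cytb, the core of complex III, at 21475 ± 1931 TPM and by the complex I subunits mt-Nd1 at 17353 ± 1598, mt-Nd2 at 11442 ± 1187 and mt-Nd5 at 8395 ± 839.7 TPM. The 13 protein genes did not form a continuous range. A run of 6 neighbours at chrM:7013-10173 (mm10), mt-Co2, mt-Atp8, mt-Atp6, mt-Co3, mt-Nd3 and mt-Nd4l, had means from 8.25 to 71.2 TPM, with a highest single value of 235 TPM. The other 7 had means from 1624 to 29544 TPM. The 6 genes encode subunits of cytochrome c oxidase and complex I, as mt-Co1 and mt-Nd1 do, and of ATP synthase. The cause of the gap was not tested.

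The complex I subunit mt-Nd4 was split within the group of pups. It lay between 6559.6 and 9436 TPM in 12 pups and between 119 and 238 TPM in female pups 7 and 8 and male pup 5. No value lay between these ranges. The next protein gene on the genome, mt-Nd5, was between 6832 and 9959 TPM in the same 15 pups, so the 3 pups were low for mt-Nd4 and not for mt-Nd5.

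**Figure D1:**
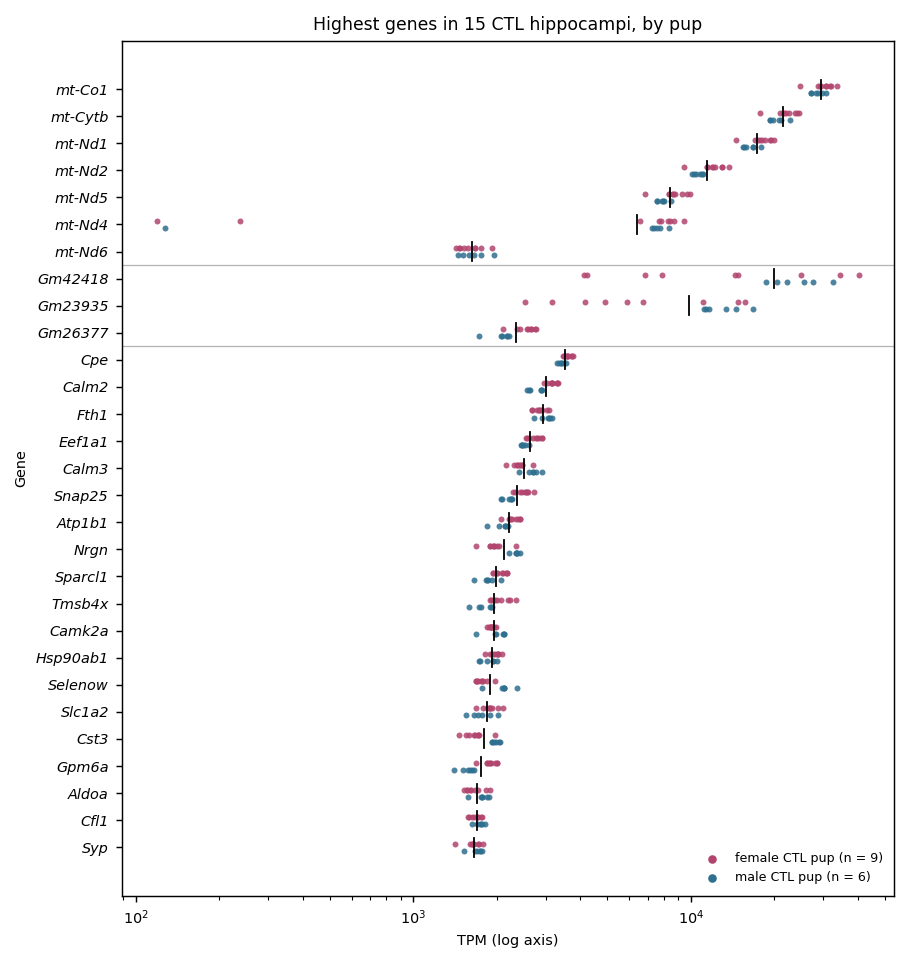
TPM in each of the 15 CTL pups (points, coloured by labelled sex, log axis; black ticks mark the mean) for the 7 high mitochondrial protein genes and 22 of the 23 nuclear genes of the highest mean. Each row is a gene, and the points of Cpe span 3302 to 3749 TPM, while those of Gm42418 span 4126 to 40495 TPM.

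Among nuclear protein-coding genes, the highest levels belonged to secretion, calcium signalling, iron storage and translation. Cpe, carboxypeptidase E, which trims prohormones in secretory granules, was first at 3530.3 ± 135 TPM, with a lowest value of 3302, a median of 3548 and a highest value of 3749 TPM. Its coefficient of variation (CV, the SD divided by the mean) was 3.82%, so the top-ranked nuclear coding gene was also among the steady ones. Next came Calm2, which encodes the calcium sensor calmodulin, at 3004 ± 249 TPM, Fth1, the ferritin heavy chain that stores iron, at 2921 ± 164 TPM, and the translation elongation factor Eef1a1 at 2640.3 ± 166 TPM. The sodium pump beta subunit Atp1b1 had 2206 ± 156 TPM.

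Synaptic genes came close behind. Snap25, a member of the complex that fuses synaptic vesicles, had 2369.9 ± 194 TPM, Nrgn, the postsynaptic calmodulin-binding protein neurogranin, had 2116 ± 237 TPM, and Camk2a, the calcium/calmodulin-dependent kinase of glutamatergic synapses, had 1945 ± 117 TPM. The vesicle protein Syp closed the 20 highest nuclear coding genes at 1661 ± 98.0 TPM. Glial products stood among them. The secreted protein Sparcl1 had 1984 ± 148 TPM, the astrocyte glutamate transporter Slc1a2 1840.2 ± 153 TPM and the protease inhibitor Cst3 1795 ± 195 TPM. Further genes of this rank were the actin-binding Tmsb4x (1955 ± 196 TPM) and Cfl1 (1699 ± 70.8 TPM), the chaperone Hsp90ab1 (1925 ± 106 TPM), the selenoprotein Selenow (1897 ± 216 TPM), the neuronal membrane glycoprotein Gpm6a (1757 ± 192 TPM) and the glycolytic enzyme Aldoa (1701 ± 125 TPM). Among these 6, Cfl1 had the lowest CV, 4.17%.

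Calm2 and Calm3 encode the same calmodulin protein, so their coding sequences differ only where the code allows. Their levels stood at 3004 ± 249 and 2515 ± 208 TPM and overlapped, with Calm2 between 2571 and 3326 TPM and Calm3 between 2153 and 2908 TPM. The first 120 of 450 coding bases are printed below from the GENCODE M21 transcripts on GRCm38 (mm10), with capitals at the 18 positions where they differ, to show that the differences are spread along the whole stretch. The coding sequence of Calm2 lies within chr17:87434030-87446795 on the minus strand and that of Calm3 within chr7:16916951-16923843 on the minus strand.
Calm2: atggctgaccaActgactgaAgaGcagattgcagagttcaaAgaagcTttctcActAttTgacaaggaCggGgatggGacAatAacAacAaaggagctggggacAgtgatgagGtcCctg
Calm3: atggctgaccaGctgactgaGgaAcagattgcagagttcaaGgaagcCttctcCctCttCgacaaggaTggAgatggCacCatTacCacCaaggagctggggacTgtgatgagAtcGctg
Over all 450 bases, Calm2 and Calm3 differed at 78 positions, which leaves 82.67% of the bases alike.

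Genes annotated as noncoding held a small share of TPM but the 2 highest nuclear levels. Which RNA the reads on these 2 entries came from was not tested. Gm42418, a predicted gene annotated as a long noncoding RNA, had 19969 ± 11318 TPM, and Gm23935, a predicted microRNA gene of 57 bases at chr16:11144125-11144181 (plus strand, mm10), had 9856 ± 4861 TPM. Gm42418 ran from 4126 TPM in female pup 2 to 40495 TPM in female pup 3, with a median of 20491 TPM. Gm23935 ran from 2536 TPM in female pup 2 through a median of 11174 TPM to 16727 TPM in male pup 1. Female pups 2 and 5 were the lowest pair for both genes, at 4126 and 4230 TPM of Gm42418 and at 2536 and 3173 TPM of Gm23935. The sequence of Gm23935 is printed here because copies of it lie elsewhere in the genome, so that reads on 1 copy cannot be told from reads on another.
Gm23935: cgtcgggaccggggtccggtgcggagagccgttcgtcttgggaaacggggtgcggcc
The annotated genes Gm24245 (chr4:139338304-139338360) and Gm24270 (chr9:56223715-56223771) had 0 differences from it over the 57 bases, yet were listed at 1.01 ± 0.832 and 148 ± 70.5 TPM. The levels of these 3 entries are therefore uncertain.

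Other predicted microRNA genes lie inside genes of high level. Gm26377, 108 bases at chr9:78478528-78478635, ranked among the top nuclear genes at 2354 ± 305 TPM and lies within 1 of the 8 annotated transcripts of Eef1a1 on the same strand. Gm22133, 109 bases at chr7:45458089-45458197, lies within 5 of the 6 transcripts of the ferritin light chain gene Ftl1. It was listed between 529 and 731 TPM in 8 pups and at up to 0.0168 TPM in the other 7. For both entries, reads of the host gene and of the short gene cannot be told apart.

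Behind Gm42418, the long noncoding RNAs of the highest level were Rian at 958 ± 119 TPM, Gm15564 at 609 ± 332 TPM, Meg3 at 561 ± 151 TPM and 2900097C17Rik at 526.04 ± 45.5 TPM. Rian and Meg3 come from the same imprinted region and are expressed from the maternal chromosome in neurons. Meg3 ran from 299 TPM in female pup 8 to 947 TPM in male pup 1, and the nuclear RNA Malat1, at 503 ± 205 TPM, had the same pup lowest at 253 and the same pup highest at 1000.4 TPM. Of the 10 long noncoding RNAs listed for this tissue, 5 were lowest in female pup 8 and 4 were highest in male pup 1. Gm15564 was listed at 0 in female pup 8.

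By gene class, nuclear protein-coding genes other than those of ribosomes and hemoglobin held 79.5 ± 1.84% of TPM, from 76.9% in female pup 3 to 83.5% in female pup 9. Mitochondrial protein genes followed with 9.64 ± 0.864%, long noncoding RNAs with 3.11 ± 1.17% and the 87 cytosolic ribosomal protein genes with 2.85 ± 0.147%. Mitochondrial ribosomal RNAs held 1.91 ± 0.271%, small RNA genes 1.69 ± 0.517% and pseudogenes 0.793 ± 0.0289%. Hemoglobin genes, a measure of blood left in the tissue, held 0.0321 ± 0.00538%. The share of long noncoding RNAs ran from 1.51% to 5.24%, a ratio of 3.48 between pups, but without Gm42418 it was 1.12 ± 0.0774% with a ratio of 1.35. Gm42418 alone thus carried most of the class and most of its spread. The ribosomal protein share was the steadier one, between 2.60% and 3.17%.

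The transcriptome was spread over many genes. The 745 genes of the highest mean held 50% of the mean TPM and 6186 genes held 90%. A mean of at least 1 TPM was found for 15489 genes, of at least 10 TPM for 10228, of at least 100 TPM for 1892 and of at least 1000 TPM for 69, of which 59 were nuclear. The 10 highest nuclear genes held 5.16 ± 1.55% of TPM, from 2.89% in female pup 2 to 7.73% in female pup 3. With predicted genes such as Gm42418 and Gm23935 left out, the 10 highest held 2.57 ± 0.0703%, from 2.42% to 2.67%.

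**Figure D2:**
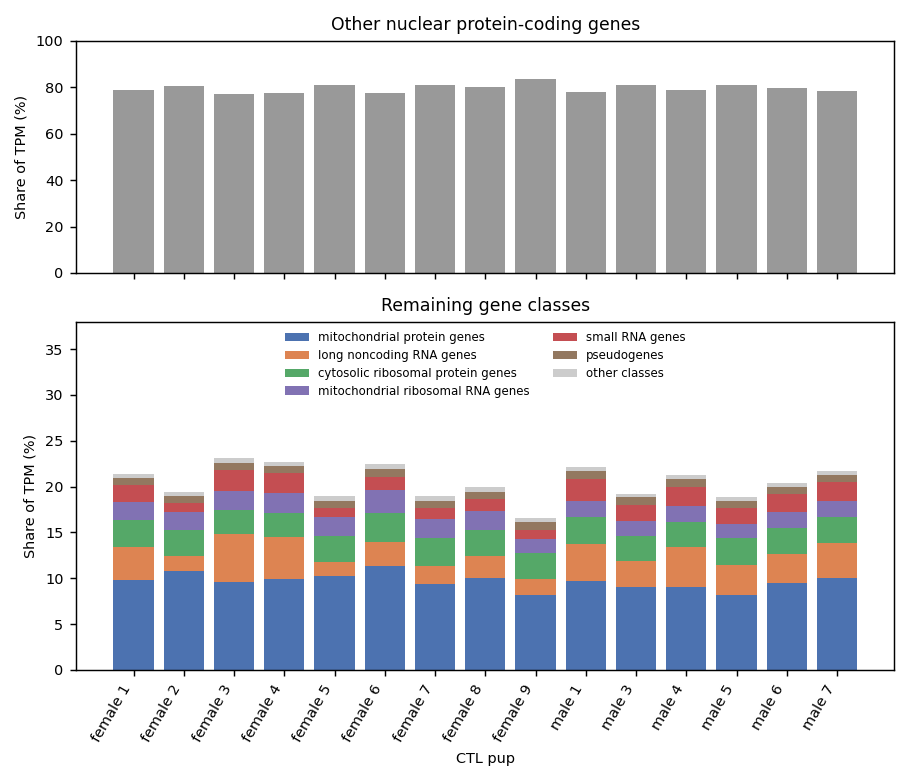
Percent of TPM held by nuclear protein-coding genes other than ribosomal protein and hemoglobin genes (upper bars) and by the remaining gene classes (lower stacked bars) in each of the 15 CTL pups. The upper bars run from 76.9% to 83.5%, and the long noncoding class runs from 1.51% to 5.24%.

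Neuronal identity genes were high, and their sum was steady. The 12 genes shared by all neurons summed to 8679 ± 261 TPM, between 8316 and 9166 TPM, with a CV of 3.01%, and all 12 had a mean above 10 TPM. Single genes of the list varied more than the sum, with a median CV of 8.12%. Rbfox3, the nuclear antigen NeuN, had 202 ± 12.9 TPM, and the calcium sensor of vesicle release Syt1 had 1133 ± 75.3 TPM, second in the list to Snap25. The RNA-binding protein Elavl4 was the lowest member at 81.8 ± 12.8 TPM. Glutamatergic genes summed to 5799.8 ± 434 TPM. Slc17a7, which encodes the vesicular glutamate transporter of hippocampal and cortical neurons, had 1042 ± 145 TPM. Slc17a6, the transporter of thalamic and other subcortical neurons, had 22.7 ± 9.26 TPM. Slc17a7 was lowest in female pup 6 at 799 TPM and highest in male pup 7 at 1258 TPM, and Slc17a6 was highest in male pup 5 at 49.1 TPM.

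Markers of each hippocampal subfield were present in every pup. For the dentate gyrus, the granule neuron transcription factor Prox1 had 59.8 ± 8.12 TPM and the calcium buffer Calb1 had 71.5 ± 9.53 TPM, and the 10 listed genes summed to 240.4 ± 22.1 TPM. Pitx3 was the 1 member at or near 0 in all pups, with a highest value of 0.0600 TPM. For CA1, Wfs1 had 116 ± 26.2 TPM and the growth factor Nov 213 ± 35.9 TPM, and the list summed to 810.5 ± 90.4 TPM, from 693 TPM in female pup 1 to 1017 TPM in male pup 5. The CA1 sum includes Mpped1, which was between 31.7 and 37.4 TPM in female pups 1, 4 and 5. Mpped1 was between 128 and 181 TPM in the other 12, and its part in the order of the sums was not tested. For CA3 and CA2, Bok had 69.5 ± 21.4 TPM, the calmodulin regulator Pcp4, a CA2 gene in the mouse hippocampus, had 257 ± 21.7 TPM, and Iyd was the lowest at 1.77 ± 0.594 TPM, with a list sum of 843 ± 49.0 TPM. Male pup 5 was highest for 5 of the 10 CA1 genes and lowest for 3 of the 11 CA3 and CA2 genes.

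That pup also carried the highest sums of genes of neighbouring cortex, thalamus and striatum. The neocortex list summed to 187 ± 42.5 TPM and reached 322 TPM in male pup 5, which was highest for 5 of its 7 genes. The next pup was female pup 9 at 227 TPM, and the next male was at 196 TPM. The subiculum and entorhinal list summed to 253 ± 45.1 TPM and reached 368 TPM in the same pup, highest for 4 of its 6 genes. Tshz2, a transcription factor of subiculum and deep cortical layers, ran from 10.5 TPM in male pup 7 through a median of 32.9 to 100.04 TPM in male pup 5. Fezf2, which specifies subcerebral projection neurons, was 76.8 TPM in male pup 5 against a median of 45.9 TPM. Male pup 7 had the lowest sums of both lists, 137 and 179 TPM. How much cortex each dissection held was not measured by another means, and the part it has in the CA1 values of male pup 5 was not tested. Thalamic genes summed to 144 ± 14.7 TPM. Their member Tcf7l2, which is also in the list of newly formed oligodendrocytes, had 5.63 ± 0.742 TPM. Striatal genes summed to 119.95 ± 13.2 TPM with the dopamine receptor Drd1 at 3.21 ± 0.845 TPM. Male pup 5 was highest for these sums too, at 177 and 147 TPM, with the next pups at 159 and 138 TPM.

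Immature neurons were still visible at this age. Dcx, the microtubule protein of migrating neuroblasts, had 27.5 ± 4.87 TPM, with a lowest value of 19.98 TPM in male pup 7, a median of 27.1 and a highest value of 39.3 TPM in female pup 2. The list of 11 immature neuron genes summed to 793 ± 93.2 TPM, and Tubb2b (331 ± 30.3 TPM) and Stmn1 (227 ± 39.4 TPM), a tubulin and a tubulin-binding protein, led it. Female pup 2 was highest for 7 of the 11 genes and male pup 7 was lowest for 7. Dividing cells gave low values. Mki67, the proliferation antigen, had 1.90 ± 0.571 TPM and was highest in female pup 2 at 3.34 TPM, and only Pcna, the polymerase clamp that also serves DNA repair, exceeded 10 TPM among the 10 listed genes, at 49.98 ± 4.53 TPM. Cajal-Retzius cells, the transient reelin cells of the marginal zone, were represented by Trp73 at 3.22 ± 0.525 TPM, while Reln, which interneurons also make, had 44.7 ± 5.12 TPM.

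The 16 interneuron genes summed to 1897 ± 171 TPM and all had a mean above 10 TPM. The GABA-synthesizing enzymes Gad1 and Gad2 had 289.5 ± 29.5 and 123 ± 12.96 TPM, and the vesicular GABA transporter Slc32a1 had 72.3 ± 12.1 TPM. Of the subclass genes, Cck (494 ± 82.9 TPM) and Sst (473 ± 83.0 TPM) were highest, above Npy (121 ± 14.7 TPM), Pvalb (63.8 ± 7.64 TPM), Lamp5 (29.8 ± 4.20 TPM) and Vip (28.3 ± 3.24 TPM). Cck is also expressed by pyramidal neurons in the mouse. Among prohormones, the granin Chgb led at 712 ± 78.0 TPM and the stress peptide Crh was at 3.53 ± 0.794 TPM, and Vgf, a granule protein induced by activity, ran from 59.9 TPM in female pup 6 to 169 TPM in female pup 8.

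Receptor subunits had a clear order at this age. Among AMPA receptor subunits, the order was Gria1 (566 ± 40.9 TPM), Gria2 (371 ± 39.1 TPM), Gria3 (136 ± 12.98 TPM) and Gria4 (55.3 ± 5.78 TPM), and the ranges of neighbours in this order did not overlap. Among NMDA receptor subunits, the obligatory Grin1 had 269 ± 29.1 TPM, while Grin2a, the subunit of mature synapses, and Grin2b, the subunit of the newborn brain, stood at 130.02 ± 17.4 and 116 ± 16.1 TPM with overlapping ranges. Grin2c (24.2 ± 5.48 TPM) and Grin2d (12.97 ± 2.69 TPM) were lower, and Grin3b was near 0, with a mean of 0.158 TPM. The leading kainate subunit was Grik5 at 209.6 ± 34.8 TPM. Among GABA-A subunits, Gabra2 had the highest mean, 263 ± 56.0 TPM, and Gabra5, at 193 ± 30.1 TPM, overlapped it in range. Slc12a5, the exporter that makes GABA inhibitory by lowering chloride in neurons, had 162 ± 20.5 TPM, and Slc12a2, the importer, had 36.7 ± 4.51 TPM. The lowest Slc12a5 value, 131 TPM, was above the highest Slc12a2 value, 43.2 TPM.

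Astrocyte genes came next to neuronal genes in summed level. The 15 genes summed to 6575 ± 324 TPM with a CV of 4.92%, led by Slc1a2 and the lipid carrier Apoe (1402 ± 219 TPM). The glutamine synthetase Glul, which is not in the list, had 1421 ± 94.3 TPM. The list member Aldh1l1 had 39.4 ± 3.94 TPM, and the transcription factor Sox9 was the lowest of the 15 and the steadiest, at 31.7 ± 1.17 TPM with a CV of 3.68%. Apoe was 837 TPM in female pup 9 and between 1040 and 1617 TPM in the other 14. The gap junction protein Gja1 varied most, from 94.8 TPM in male pup 5 through a median of 177 to 346 TPM in female pup 2, a CV of 35.7%.

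The late stage of the oligodendrocyte lineage varied more between pups than the neuronal, astrocyte, microglial or vessel lists. Progenitor genes summed to 882 ± 57.9 TPM with a CV of 6.57%, and the growth factor receptor Pdgfra, which defines progenitors, had 58.5 ± 5.12 TPM. Newly formed oligodendrocyte genes summed to 435 ± 37.8 TPM with a CV of 8.68%. The 18 genes of mature oligodendrocytes and myelin summed to 2864 ± 689.6 TPM with a CV of 24.1%, from 1463 TPM in female pup 2 to 4182 TPM in male pup 3, a ratio of 2.86. Female pup 2 was lowest for 16 of the 18, and male pup 3 was highest for 10 and female pup 6 for 7.

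Single myelin genes followed this order. Mbp, myelin basic protein, had 841 ± 215 TPM, with 422 TPM in female pup 2, a median of 819.6 and 1335 TPM in male pup 3. Mobp, a further structural protein of myelin, had 551 ± 170.1 TPM, from 233 TPM in female pup 2 to 923 TPM in female pup 6. Mag, the adhesion protein of the innermost myelin layer, was 92.4 TPM in female pup 2, 149 TPM in the next lowest, male pup 5, had a median of 202 TPM and was 320 TPM in male pup 3. The highest and lowest pups thus stood apart on both sides, and the other 13 filled the range between 149 and 235 TPM. Cnp, the enzyme of noncompact myelin, had 367 ± 67.5 TPM, the compact-myelin lipid raft protein Mal 116 ± 45.7 TPM, and the lowest member, the aspartoacylase Aspa, 5.82 ± 1.57 TPM. Female pup 2, low for myelin, was the pup of the highest Dcx and of the highest sum of immature neuron genes, 984 TPM. Age within the day, litter and dissection were not tested.

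Levels of the lineage genes were related across pups for 1 of 3 pairs. Mag and Enpp6, an enzyme that marks newly formed oligodendrocytes, rose together over the 15 pups (Pearson r = 0.823, permutation p = 7.0e-05, adjusted p = 0.00042 over 6 relations; Spearman rho = 0.814, permutation p = 0.00035). Without male pup 3 and female pup 2, the pups farthest from the median of Mag, r was 0.721 (permutation p = 0.00491, adjusted p = 0.0295). Within the 9 females r was 0.773 (exact permutation p = 0.00859, adjusted p = 0.0515), and within the 6 males 0.966 (exact permutation p = 0.00556, adjusted p = 0.0333). Mag and the progenitor gene Pdgfra gave r = -0.142 and rho = 0.0179 (permutation p = 0.609 and 0.954). Mag and Dcx gave r = -0.537 (permutation p = 0.0430, adjusted p = 0.0860) and rho = -0.229 (permutation p = 0.410), and without male pup 3 and female pup 2 r was 0.0422, so that relation rests on these 2 pups.

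Microglial genes summed to 555 ± 28.2 TPM. The purine receptor P2ry12 had 74.7 ± 12.2 TPM, and Tmem119 had 25.7 ± 2.39 TPM. Border macrophage genes were low, with the mannose receptor Mrc1 at 2.94 ± 0.655 TPM. The fractalkine receptor Cx3cr1, a microglial gene, was 47.9 TPM in female pup 7 and between 4.39 and 16.3 TPM in the other 14, while Tmem119 in all 15 pups lay between 21.8 and 30.1 TPM. Its annotated locus, chr9:119901616-120069879, overlaps 9 other genes, and reads of overlapping genes may be counted for it.

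Vessel genes were present at moderate levels. Endothelial genes summed to 389.9 ± 29.1 TPM, with the tight junction protein Cldn5 highest at 71.1 ± 12.3 TPM and the glucose transporter Slc2a1 at 54.99 ± 6.33 TPM. Mural cell genes summed to 316 ± 27.2 TPM, with the pericyte regulator Rgs5 at 176 ± 22.6 TPM and the platelet-derived growth factor receptor Pdgfrb at 19.9 ± 1.58 TPM. Female pup 6 was lowest for 6 of the 12 endothelial and 5 of the 10 mural genes. Meningeal and fibroblast genes summed to 213 ± 17.8 TPM with collagen Col1a1 at 7.43 ± 1.70 TPM. Blood in the tissue gave 327 ± 54.6 TPM of erythroid genes, of which the beta globin Hbb-bs had 223 ± 39.0 TPM, and the nuclear factor of red cell precursors Hemgn was near 0 in all pups, with a highest value of 0.120 TPM. Across pups, Hbb-bs and Cldn5 gave r = -0.0687 (permutation p = 0.806) and rho = 0.129 (permutation p = 0.649).

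Choroid plexus genes varied more than any other list. This tissue lines the ventricle beside the hippocampus and secretes cerebrospinal fluid. Ttr, the thyroid hormone carrier that it makes in large amounts, was 1.45 TPM in female pup 1, had a median of 40.6 TPM and was 642 TPM in male pup 3. Male pups 3, 6 and 7 held the highest values, 642, 519 and 441 TPM, and female pups 1 and 2 the lowest, 1.45 and 2.78 TPM. The folate receptor Folr1 was highest in the same 3 pups, with 6.62, 4.99 and 6.27 TPM in male pups 3, 6 and 7 and no more than 2.56 TPM elsewhere. Male pup 3 was highest for 8 of the 10 choroid plexus genes. Ttr and the meningeal collagen Col1a2 were not related across pups at the 0.05 level (r = -0.240, permutation p = 0.392; rho = -0.207, permutation p = 0.459). Ependymal genes were low, with the cilia regulator Foxj1 at 4.55 ± 1.81 TPM. Male pup 3 thus stood highest both for choroid plexus genes and for the myelin sum, and the part of dissection in either was not tested.

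**Figure D3:**
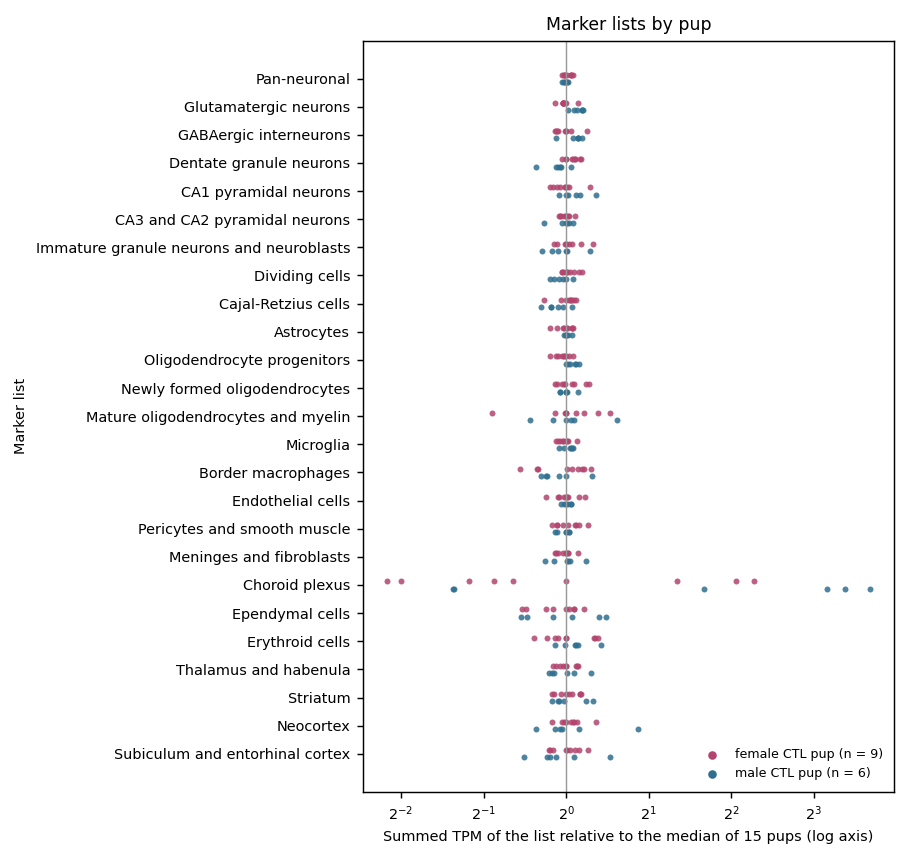
Summed TPM of each marker list in the 15 CTL pups divided by the median of the 15 (points, coloured by labelled sex, log axis; the vertical line is the median). The pan-neuronal points, from 8316 to 9166 TPM, lie close to the line, while the myelin sum runs from 1463 to 4182 TPM and the choroid plexus sum from 11.8 to 682 TPM.

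Immediate early genes, which neurons switch on within minutes of activity, were moderate. The 12 genes summed to 378 ± 48.6 TPM, led by Egr1 (87.4 ± 13.04 TPM) and Arc (83.0 ± 11.5 TPM), and Fos had 13.1 ± 3.34 TPM. Fos was 9.37 TPM in female pup 3, had a median of 11.6 TPM and was 19.4 TPM in male pup 5. Male pup 5 was highest for 6 of the 12 genes and female pup 3 lowest for 7. Fos and Junb gave r = 0.565 (permutation p = 0.0279, adjusted p = 0.0838) and rho = 0.389 (permutation p = 0.151). Within the 9 females r was 0.385 (exact permutation p = 0.298) and within the 6 males 0.945 (exact permutation p = 0.0306, adjusted p = 0.0917). Without male pups 5 and 3 r was 0.00460, so the relation rests on these 2 pups.

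The spread between pups was small for most genes. Among the 10228 genes whose mean reached 10 TPM, the median CV was 10.6%, and 90% of the genes lay between 5.22% and 26.2%. The CV was under 5% for 400 genes, at least 50% for 81 and at least 100% for 10. It fell with level, from a median of 11.95% for genes between 10 and 30 TPM to 8.54% for those of at least 300 TPM. By class, cytosolic ribosomal protein genes had a median CV of 9.42%, other nuclear coding genes 10.5%, long noncoding RNAs 13.4%, pseudogenes 13.7%, mitochondrial protein genes 14.8% and small RNA genes 31.2%. With the SD pooled within the labelled sexes, the median over all of these genes was 8.97%. A CV here holds both the difference between pups and the error of measurement, which have no separate estimate.

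The steadiest named genes were of moderate level. Ppp1r12b, a regulatory subunit of myosin phosphatase, had the lowest CV, 2.05%, with 65.7 TPM in the lowest pup, a median of 67.8 and 71.6 TPM in the highest. The ubiquitin-conjugating enzymes Ube2q1 and Ube2r2 had CVs of 2.20% and 2.85% at 84.4 and 61.5 TPM. The actin regulator Wasf3 (2.68%), the nuclear import receptor Kpna6 (2.83%), the signalling adaptor Socs7 (2.93%), Mmd2 (2.98%) and the alanine aminotransferase Gpt2 (3.04%) made up the rest of the 8 lowest. Their means lay between 57.6 and 194 TPM, far below the top ranks.

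**Figure D4:**
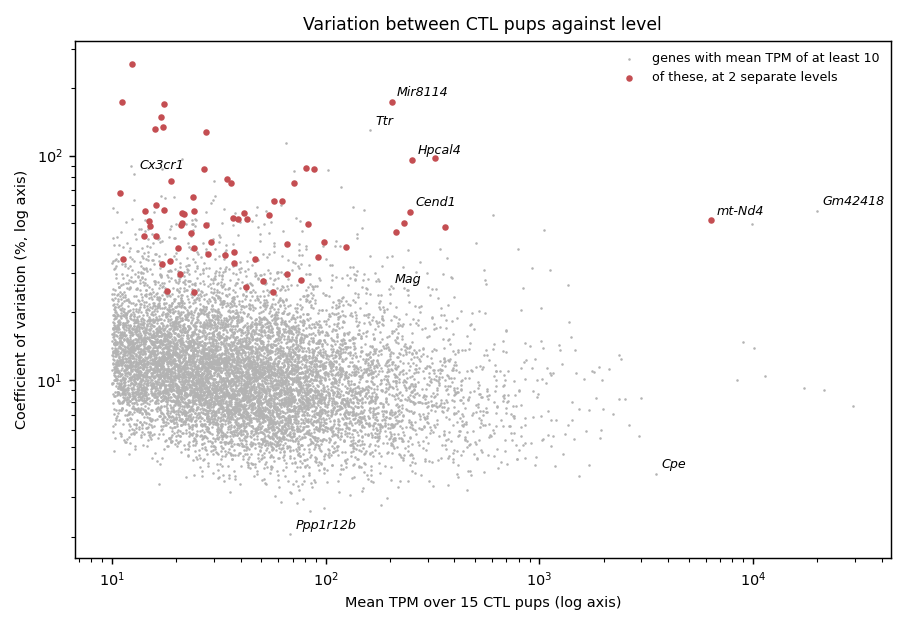
Coefficient of variation over the 15 CTL pups (percent, log axis) against mean TPM (log axis) for the 10228 genes whose mean reached 10 TPM, each a grey point, with the 69 genes at 2 separate levels in red. Of the genes, 90% lie between 5.22% and 26.2%, and the extremes run from Ppp1r12b at 2.05% to the red point of Mir686 at 255%.

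The most variable named genes were of several kinds. With predicted, mitochondrial and sex chromosome genes left out, the highest CVs belonged to the microRNA genes Mir686 (255%) and Mir8114 (174%), the clustered protocadherins Pcdhgc3 (170.3%), Pcdhga9 (114%) and Pcdhgb1 (90.1%), and Ttr (130.2%). Of the genes left out, mt-Atp6, in the low run of the mitochondrial genome, had a CV of 148%. Next in rank were the neuronal calcium sensor Hpcal4 (95.9%), the septin Sept2 (86.8%), the chemokine Cx3cl1 (86.1%), the ribonuclease Rnasek (85.8%), Cx3cr1 (82.6%) and the complex I assembly factor Ndufaf4 (77.0%). For several, 1 or 2 pups were far above the rest. Pcdhgc3 was 98.6 TPM in male pup 5 and 81.3 TPM in female pup 8, with a median of 6.22 TPM. Cx3cl1 was 415 TPM in female pup 6, with 119 TPM in the next pup, and Rnasek was 289 TPM in male pup 3, with 68.6 TPM in the next. Sept2 was 69.5 TPM in female pup 8, with 23.3 TPM in the next. Members of the protocadherin gamma cluster share their last exons, so reads on those exons cannot be assigned to 1 member.

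Both microRNA genes were either near 0 or high. Mir686 was 94.0 TPM in male pup 1 and 86.1 TPM in male pup 7, and under 1 TPM in the other 13. Mir8114 was between 614 and 925 TPM in female pups 6 and 7 and male pups 6 and 7, and no more than 0.891 TPM in the other 11. Libraries of messenger RNA of this kind do not capture mature microRNAs of about 22 bases, and both genes lie in longer host genes on the same strand. Mir686, 109 bases at chr14:54616677-54616785 on the minus strand, lies within 1 of 2 transcripts of the proteasome subunit gene Psmb5, which had 112 ± 15.01 TPM. Mir8114, at chr1:153899926-153900036 on the plus strand, overlaps Glul, the glutamine synthetase gene, at 1421 ± 94.3 TPM. Reads of host and microRNA gene cannot be told apart. The mature sequences are printed, from RefSeq on GRCm38.p6, to show what the entries name, with the seed, bases 2 to 8, in capitals.
mmu-miR-686: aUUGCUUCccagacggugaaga
mmu-miR-8114: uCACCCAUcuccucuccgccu
The seeds differ from each other.

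Genes at 2 separate levels among the pups were a wider pattern. By a rule chosen after the values were seen, a gene was counted when the widest gap between neighbouring pups in log2(TPM + 1) was at least 1, left at least 2 pups on each side and was wider than the range on either side. This held for 69 of the 10228 genes, 0.675%, of which 58 were protein coding. Hpcal4 lay between 82.7 and 93.7 TPM in 10 pups and between 563 and 619 TPM in the other 5, female pups 7 and 9 and male pups 3, 6 and 7. Cend1, a factor that leads neuronal precursors out of the cell cycle, lay between 112 and 132 TPM in 8 pups and between 363 and 422 TPM in 7. The lysosome transport GTPase Arl8a lay between 126 and 155 TPM in 9 pups and between 350 and 391 TPM in 6, and Rac1, a GTPase that shapes actin, between 54.4 and 58.1 TPM in 3 pups and between 216 and 383 TPM in 12. The CA1 gene Mpped1 was between 31.7 and 37.4 TPM in female pups 1, 4 and 5 and between 128 and 181 TPM in the other 12. These genes did not split the pups in the same way.

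The 69 genes divided the pups in many ways, and each pup was on the low side for 21 to 38 of them. The split followed labelled sex exactly for 4, namely the sex chromosome genes Xist, Ddx3y and Eif2s3y and the predicted gene Gm27927. Of the 69, 44 (63.8%) overlapped another annotated gene, against 57.1% of the other genes at that level, and 29 (42.0%) overlapped one on the same strand, against 25.5%. Hpcal4, Cend1 and Mpped1 overlapped none. Whether the split arises in the pups or in the assignment of reads to transcripts was not tested. Without these 69 genes, the median CV was 10.5%.

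**Figure D5:**
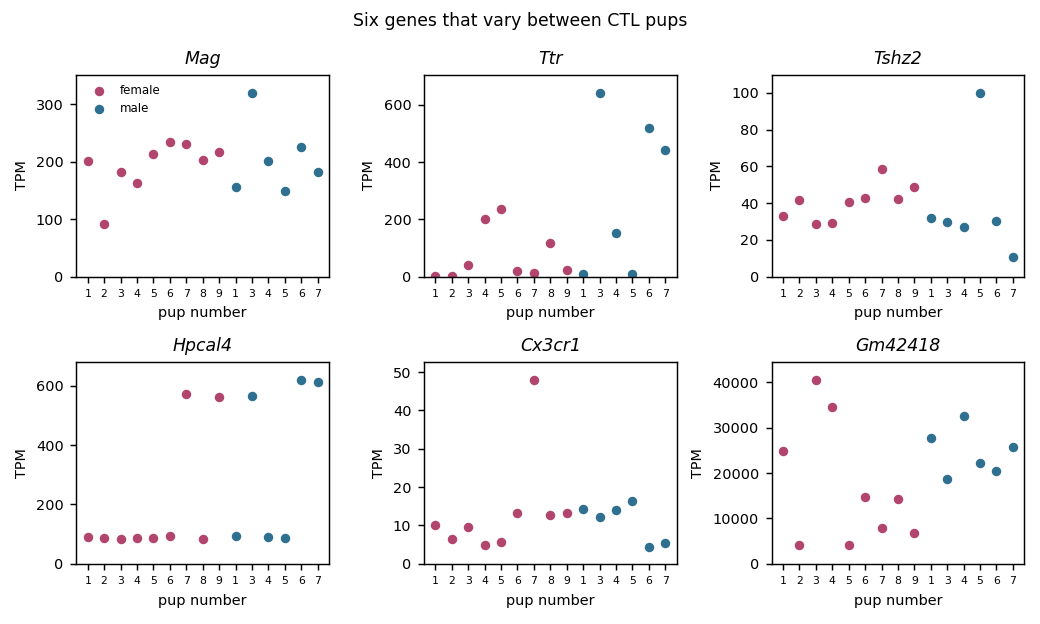
TPM in each of the 15 CTL pups (points, coloured by labelled sex; linear axes that start at 0; pup number on the horizontal axis) for 6 genes that varied between pups, Mag, Ttr, Tshz2, Hpcal4, Cx3cr1 and Gm42418. Hpcal4 shows 10 pups between 82.7 and 93.7 TPM and 5 between 563 and 619 TPM, and Ttr runs from 1.45 to 642 TPM without such a gap.

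Female and male CTL pups were then compared across 13257 genes with limma on log2(TPM + 1), with Benjamini-Hochberg adjustment over all genes tested. Differences on the log2 scale are female minus male, and a value alone in parentheses after a gene is this difference. The adjusted p was under 0.05 for 3482 genes, 26.3% of those tested, of which 2000 (15.1%) were higher in females and 1482 (11.2%) higher in males. Most of the differences were small, with a median size of 0.24 on the log2 scale, and 3122 of the 3482 were under 0.4. Without female pup 9, 4350 genes passed, 2237 higher in females and 2113 in males, and outside the X and Y chromosomes 70.4% of the 4178 genes so called had a female pup 9 value nearer the male mean, beside 60.3% of all 12808 genes tested there and 55.4% of those not called. The same measure for each other female, left out in turn, gave 8.41% to 19.2%. The labels give no day of dissection, extraction or sequencing, so labelled sex and any batch that went with it cannot be told apart.

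The sex chromosome genes gave the largest differences. Xist, the RNA that silences 1 X chromosome, was 146 ± 23.8 TPM in the 9 females and at most 0.0319 TPM in the 6 males, and Eif2s3y and Ddx3y, both Y-linked, were 0 in every female and 43.1 ± 12.5 and 39.8 ± 9.39 TPM in the males. Genes that escape silencing on the X were higher in females. Kdm6a, a histone demethylase, was 24.0 ± 1.40 TPM in females and 15.6 ± 1.83 in males (log2 difference 0.60, SE 0.06, limma adjusted p = 4.55e-05), and Eif2s3x, a translation initiation factor, was 82.8 ± 3.66 and 47.3 ± 2.16 TPM (log2 difference 0.79, SE 0.04, limma adjusted p = 1.13e-09). Of 451 X-linked genes tested, 128 were higher in females and 16 in males, and 5 of the 6 Y-linked genes tested were higher in males.

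Receptor subunits were counted with X-linked genes kept in. AMPA and GABA-A subunits that passed were higher in females, the NMDA subunits that passed were higher in males, and kainate subunits passed in both directions. All 4 AMPA subunits were higher in females, with Gria2 at 393 ± 26.8 TPM in females and 337 ± 29.6 in males (log2 difference 0.22, SE 0.06, limma adjusted p = 0.01) and Gria4 at 59.3 ± 2.75 and 49.2 ± 2.91 TPM (log2 difference 0.26, SE 0.04, limma adjusted p = 0.0013). Of the 12 GABA-A subunits, 5 were higher in females, among them Gabra4 (0.30), and none in males, beside 15.1% of all genes tested higher in females and 11.2% in males. Of the 5 kainate subunits, Grik2 (0.22) was higher in females and Grik5 (-0.41) in males, and their summed level was 292 ± 23.4 TPM in females and 351 ± 14.1 in males. The median log2 difference of the 4 AMPA and of the 12 GABA-A genes was 0.20 and 0.24, beside 0.02 over all genes tested. Grin2c (-0.54) and Grin2d (-0.42) were higher in males, and the other 4 NMDA subunits tested did not pass. Without female pup 9 the counts were 4 of 4 AMPA, 6 of 12 GABA-A subunits and 3 of 6 NMDA subunits, in the same directions. With each pup left out in turn, 2 to 4 AMPA subunits and 3 to 6 GABA-A subunits passed, with the fewest without male pup 1 and without male pup 6, and Gria2, Gria4, Gabra4, Grik5, Grin2c and Grin2d passed every time. The calls of Gabrb2, Gria1 and Grik2 were lost in 12, 10 and 7 of the 15 fits.

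Progenitor and microglial lists leaned the other way, and the other glial lists did not. Of the 12 oligodendrocyte progenitor genes, 6 were higher in males, beside 11.2% of all genes tested, and none in females, among them Olig1, a lineage transcription factor, at 163 ± 23.6 TPM in females and 217 ± 17.7 in males (log2 difference -0.42, SE 0.08, limma adjusted p = 0.0033), and Sox10 (-0.43) and the proteoglycan Cspg4 (-0.44). Of the 13 microglial genes, 5 were higher in males, beside the same 11.2%, namely the complement genes C1qa (-0.21), C1qb (-0.27) and C1qc (-0.25), Csf1r (-0.17) and Tmem119 (-0.18). Of the 15 astrocyte genes 1 was higher in males and none in females, and of the 10 newly formed oligodendrocyte genes 1 passed each way. None of the 18 mature oligodendrocyte and myelin genes passed in either direction, and their median log2 difference was 0.00. Without female pup 9, 7 progenitor genes were higher in males and 2 in females, and again no myelin gene passed. With each pup left out in turn, 5 to 7 progenitor genes were higher in males, with the fewest without female pup 2, and the 5 microglial genes passed every time.

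Neuronal lists were mixed. Over all genes tested, 15.1% were higher in females and 11.2% in males. Of the 12 genes shared by all neurons, 3 were higher in females and 3 in males, so their sum hides differences in both directions. Of the 16 interneuron genes, 4 were higher in females, Gad1 (0.20), Gad2 (0.27), Adarb2 (0.18) and Dlx6os1 (0.29), and 2 in males, Cck (-0.36) and Slc32a1 (-0.28). Of the 9 dentate granule genes tested, Calb1 (0.29) and Trpc6 (0.27) were higher in females, and of the 11 immediate early genes tested Junb (-0.29) and Egr4 (-0.69) were higher in males. No CA1, choroid plexus, thalamic, striatal or neocortical gene passed. Without female pup 9, 4 dentate genes were higher in females and 3 of the 10 CA1 genes in males. Calm2 (0.20) was higher in females and Calm3 (-0.16) in males. The calls of Gad1 and Calm3 were lost without male pup 7 (adjusted p = 0.0579 and 0.0625), that of Adarb2 without male pup 5 (adjusted p = 0.0517), and that of Slc32a1 in 9 of the 15 fits that left out 1 pup.

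The largest differences outside the sex chromosomes among named genes included coding genes and small RNA genes. Ncoa7, a nuclear receptor coactivator, was 89.6 ± 11.8 TPM in females, with a lowest value of 71.8, and 53.2 ± 4.95 in males, with a highest value of 61.0 (log2 difference 0.73, SE 0.08, limma adjusted p = 1.60e-04), so the groups did not overlap. The kinase Nek7 (0.99), Arl8a (0.84) and the survival factor Bcl2l2 (1.21) also passed as higher in females, and all 3 were among the genes at 2 levels. Nek7 lay between 9.27 and 10.8 TPM in male pups 3, 4 and 5. In the other 12 pups, males among them, it lay between 26.5 and 41.1 TPM. The exosome subunit Exosc6 (1.03), the transfer RNA gene mt-Te (1.21) and Mir5117 (1.41) were also higher in females. Higher in males were the receptor Gpr25 (-0.85), the splicing regulator Raver1 (-0.88), the small RNA genes Mirlet7c-2 (-0.87), Mir409 (-0.87), Mir3093 (-1.20), Mir7049 (-0.89), Mir7006 (-0.86) and Snord83b (-0.90). These 8 had means from 2.01 to 5.42 TPM. Of these 15 genes, 6 passed with each pup left out in turn, Ncoa7, Nek7, mt-Te, Gpr25, Mirlet7c-2 and Mir3093, and the other 9 lost the call without at least 1 pup, most often Arl8a, in 10 of 15 fits. Libraries of this kind do not capture mature microRNAs, so the microRNA genes among the 15 do not give levels of those. Whether reads of host genes were counted for them was not tested.

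Whole-library measures were compared with exact permutation tests over all choices of libraries, adjusted over 4 measures. The mitochondrial share was 12.3 ± 1.16% in females and 11.2 ± 0.754% in males (exact two-sided p = 0.0681, adjusted p = 0.136), and without female pup 9 the females were at 12.6 ± 0.794% (exact p = 0.00366, adjusted p = 0.0147). This share includes mt-Nd4, which was low in female pups 7 and 8 and male pup 5, and its part in the comparison was not tested. The number of genes at 1 TPM or more was 15425 ± 93.3 in females and 15584 ± 193 in males (exact p = 0.0424, adjusted p = 0.136). The ribosomal protein share (exact p = 0.722) and the long noncoding share (exact p = 0.206) did not pass.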

How the data were processed

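Messenger RNA libraries of the left hippocampus were sequenced for 46 pups, of which the 15 CTL libraries were used. The authors aligned the trimmed reads to mm10 with HISAT2 and obtained the deposited TPM values per gene with StringTie and a GENCODE annotation. Versions and the strand setting of the counting were not given in the sources used here. TPM keeps no depth, so counting error could not be given. The deposited table holds 52636 genes. Of these, 1 row with text in place of a value was left out, and 233 genes were not matched to the annotation used for gene classes (99.6% matched). The 3 deposited tables of the authors' own comparisons, with fold changes and p-values between rearings, were not used.

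Mean, SD and CV were computed from TPM with Python 3.11.15 and numpy 2.4.6. Female and male pups were compared with limma 3.58.1 in R 4.3.3 on log2(TPM + 1) with a variance trend, for genes whose mean reached 3 TPM in either sex, at a Benjamini-Hochberg adjusted p of 0.05. The log2 scale with a pseudocount of 1 understates changes of low genes. No count model was run because TPM is not a count. Tested on simulated data for 13257 genes with 200 changed, 73% of those set to 0.4 and 97% of those set to 0.8 in log2 units were found. Library measures were compared by exact two-sided permutation, and 6 relations between genes by 100000 permutations (scipy 1.17.1).

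Members, lists and tests were chosen with earlier results of these data known. The genes named were the 20 nuclear genes of the highest mean and the mitochondrial protein genes, the 5 highest long noncoding RNAs, in each list the defining gene, the 2 highest and the lowest, the 12 highest and 8 lowest CVs, and the 8 largest sex differences each way, with predicted and sex chromosome genes left out of the last 3 groups and mitochondrial genes of the CV groups. Receptor, calmodulin and sex chromosome genes were all open to naming. Some genes that this rule takes are not reported here. Further genes were named after their values were seen, among them those at 2 levels, Gm24245, Gm24270, Gm22133, Malat1, single list members with the largest spread and those listed as called. Alternatives were another pseudocount or filter, nuclear TPM alone, quantile normalization, leaving out each pup, moving female pup 9 to the males, and the sample number as a block.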

Additional observations from a re-analysis of the deposited data

Results flagged for a closer look

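Among 164 groups of 6 or 9 pups whose highest and lowest values were tested against the gap to their neighbour, 17 (10.4%) held a pup far from the others of its labelled sex, where chance gives about 5%. No explanation was tested for any of them. Female pup 9 was the pup in question for 7. It was high for the glutamate transporter Slc17a7 at 1199 TPM (next female 984 TPM), the NMDA subunit Grin1 at 328 TPM and the peptide Sst at 603 TPM, and low for the membrane glycoprotein Gpm6a at 1677 TPM. Its summed levels were 6193 TPM for glutamatergic, 2213 TPM for GABAergic and 969 TPM for CA1 genes, each the highest of the 9 females.

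Male pup 3 stood high for Mbp at 1335 TPM (next male 853 TPM), for Enpp6 at 37.5 TPM and for the chloride importer Slc12a2 at 41.2 TPM. Male pup 5 stood low for Camk2a at 1678 TPM and high for Col1a1 at 11.8 TPM and for the neocortex sum at 322 TPM. Male pup 7 was low for Gm26377 at 1720 TPM, and male pup 1 was low for Rbfox3 at 197 TPM. Among females, pup 6 was low for Reln at 34.97 TPM and pup 7 was high for Cx3cr1 at 47.9 TPM (next female 13.3 TPM).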

How the results depend on the processing

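The count of 3482 genes between the sexes stayed within 1.5 times under every alternative run: 3479 with a pseudocount of 0.1, 2528 without a filter, 3267 at a mean of at least 10 TPM, 3744 on nuclear TPM, 3743 after quantile normalization, 4350 without female pup 9 and 4434 with it among the males. The share higher in females moved from 57.4% to 47.1% with that move and to 47.1% with the sample number as a replicate block, which gave 3203 genes. In the block fit the sex difference rests on the 6 numbers that both sexes share. Female pup 9 therefore adds nothing to it, and the 2 settings are not independent. No pairing by number was seen: same-numbered pups correlated at -0.004 to 0.138 in their deviations from the mean of their sex, and 1 of 6 correlated best with its own number. Correlations this low cannot tell whether same-numbered pups shared a litter or a day of processing. Leaving out 1 pup at a time gave 2579 to 4350 genes, a median CV of 10.3% to 10.7%, a mitochondrial share of 11.66% to 11.96% and 4.97% to 5.32% of TPM in the 10 highest nuclear genes.

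The median CV was 11.7% at a minimum of 3 TPM and 8.97% with the SD pooled within sex. The 10 highest nuclear genes held 2.57% without predicted genes, an alternative chosen after seeing the data. The female minus male mitochondrial share was 1.37 points without female pup 9 and 1.55 with it among the males, which passed 0.05 as the difference over all pups did not, and the difference in genes at 1 TPM was -167 in the latter setting. Mag and Pdgfra gave r of 0.0559 without 2 pups and 0.160 within females, Mag and Dcx 0.0422 without 2 pups, Hbb-bs and Cldn5 0.363 within males, all opposite in sign to the value over all pups, and Mag and Enpp6 within females 0.773. The causes were not tested. Of the values of single named genes under the alternatives, 247 stayed on the same side of the threshold, 82 lost it and none changed sign.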
